A study of Rattus norvegicus with 6 samples.

Results

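The genes described here are 50 cell cycle genes in rat liver after tienilic acid (TA), a diuretic that lowers uric acid and was taken off the market because of hepatitis. The animals were male Sprague Dawley rats. The set was drawn up by function, as cyclins, kinases, replication factors and mitotic proteins. Earlier results of these data were known by then, so its counts are set beside all genes as a description. Each gene was read from the probe set of the Affymetrix Rat230_2 array that carries its symbol alone, taking the brightest where there were several. Of the 50, 48 had such a probe set and 46 lay above the filter on low values, among 10449 genes measured in all: 5 of G1, 10 of S phase and 31 of G2 and mitosis (G2/M). E2f1 and Mcm3 were below the filter, at means of 2.75 and 2.12 against a limit of 2.82, while Birc5, at 3.41, and Kif11, at 3.57, were the lowest above it. Rrm2 and Tpx2 had no probe set with their symbol alone. All values are log2 values as deposited, on which a difference of 1 is 2-fold, and values near 2 to 3 form a floor where differences are compressed. TA was given by mouth at 100 mg/kg in sodium bicarbonate, and vehicle rats received sodium bicarbonate alone. The rats of the 6 h groups had 1 dose, and those of the 24 h groups a second one at 16 h. At either time there were 2 TA arrays, each of 1 animal, and 1 vehicle array of RNA pooled from 2 rats, 6 arrays and 8 animals in all. A difference between the times therefore holds time after the first dose, the number of doses and the hour of the day, under a light cycle of 12 h, which cannot be told apart. Neither vehicle group has a replicate, so the error in the tests below is that between TA animals, taken to hold for the pools too.

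A cell enters the cycle in G1, when D-type cyclins activate their kinases and the retinoblastoma family releases the E2F factors, which switch on cyclin E and the genes of DNA replication. The genes of G2 and mitosis follow later. Their promoters typically carry the CCAAT box bound by NF-Y and the cell cycle homology region (CHR), which is bound by the MuvB complex together with FOXM1 or, in resting cells, with the E2F and p130 repressors of the DREAM complex. Adult hepatocytes are mostly at rest and divide again after injury or loss of tissue. In bulk liver RNA, more cells in cycle and more RNA per cell cannot be told apart.

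The upstream sequences of the genes carried these words by phase. RefSeq promoters of build GRCr8 were matched by symbol for 37 of the 50 genes, and the 250 bases before the start were searched on both strands for 3 sets of words, none of which contains another. These were CCAAT, the CHR words TTTGAA and TTCGAA, and the E2F words TTTCCCGC, TTTCGCGC, TTTGCCGC and TTTGGCGC. The E2F words lay in 6 of 10 S phase promoters and in 1 of 25 of G2/M, against 1.81% of all 27457 promoters. CHR words lay in 12 of the 25 G2/M promoters and 3 of the 10 of S phase, against 17.3% of all. CCAAT lay in 19 of 25 and 6 of 10, against 34.3%, and CCAAT and a CHR word together in 11 of the 25 G2/M promoters against 6.22%. A match is a description of the letters and not of binding. The 4 promoters below were chosen after their words were seen, to show the phases and both directions of the time difference. Cdk1 holds all 3 kinds of word, Spc25 is a kinetochore gene that was higher at 24 h, Ccnb2 is a mitotic cyclin that was lower at 24 h, and Mcm6 is the helicase gene with the largest difference between times in TA. Capitals mark the words.
Cdk1, chr20:19265043-19265292, plus strand: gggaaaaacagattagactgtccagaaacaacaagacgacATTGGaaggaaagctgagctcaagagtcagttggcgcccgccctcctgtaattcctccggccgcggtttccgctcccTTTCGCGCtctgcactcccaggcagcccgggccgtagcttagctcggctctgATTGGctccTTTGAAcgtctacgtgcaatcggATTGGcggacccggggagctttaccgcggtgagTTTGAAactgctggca
Spc25, chr3:74396719-74396968, minus strand: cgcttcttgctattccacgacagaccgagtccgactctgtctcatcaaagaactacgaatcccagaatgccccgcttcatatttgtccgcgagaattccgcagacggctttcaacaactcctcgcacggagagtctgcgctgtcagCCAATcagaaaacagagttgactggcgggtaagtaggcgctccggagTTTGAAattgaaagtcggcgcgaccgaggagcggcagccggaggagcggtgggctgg
Ccnb2, chr8:79981659-79981908, minus strand: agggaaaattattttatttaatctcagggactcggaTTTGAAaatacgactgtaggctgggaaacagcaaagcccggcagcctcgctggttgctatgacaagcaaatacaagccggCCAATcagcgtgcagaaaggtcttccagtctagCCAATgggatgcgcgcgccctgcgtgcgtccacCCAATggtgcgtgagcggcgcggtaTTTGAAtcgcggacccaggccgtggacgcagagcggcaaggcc
Mcm6, chr13:42404353-42404602, minus strand: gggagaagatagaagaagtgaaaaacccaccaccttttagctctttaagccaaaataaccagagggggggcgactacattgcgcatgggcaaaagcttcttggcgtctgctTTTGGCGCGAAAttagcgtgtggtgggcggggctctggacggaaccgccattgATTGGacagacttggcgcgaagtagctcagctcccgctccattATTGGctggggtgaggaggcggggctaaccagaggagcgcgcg
The start is the one in the RefSeq table. The annotated gene span, over all its transcripts, reaches 41 bases into the stretch of Cdk1, 107 into that of Spc25 and 59 into that of Ccnb2, and not into that of Mcm6. In Cdk1, CHR words begin 72 and 16 bases before the start, the reverse complement of CCAAT at 210, 81 and 49, and the E2F word at 133. Spc25 has CCAAT at 104 and a CHR word at 57, both inside its gene span. Ccnb2 has 3 CCAAT words, at 134, 101 and 68, and CHR words at 214 and 43. The CHR word of Cdk1 at 16 and that of Ccnb2 at 43 also lie inside their gene spans. Mcm6 has no CHR word, 2 CCAAT words on the reverse strand at 86 and 43, and E2F words at 139 and 135 that overlap, 1 on each strand.

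Genes of mitosis were higher at 24 h than at 6 h in vehicle rats and in TA rats alike. The vehicle pool of 24 h was at least 2-fold above that of 6 h for 17 of the 46 genes, all of G2/M, against 1.42% of all genes, and at least 2-fold below it for 2, Ccnd1 and Cdkn3, against 1.57%. In TA the means of the times were at least 2-fold apart upward for 15 genes, against 1.5% of all genes, and downward for Cdkn3 alone, against 1.51%. Of the 15, 12 were of G2/M, 2 of S phase and 1 of G1. For 10 genes both differences reached 2-fold upward, against 0.44% of all genes. The comparisons of times in vehicle and in TA share no array. The plot of values by array shows the G2/M block low at 6 h and high at 24 h.

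**Figure D1:**
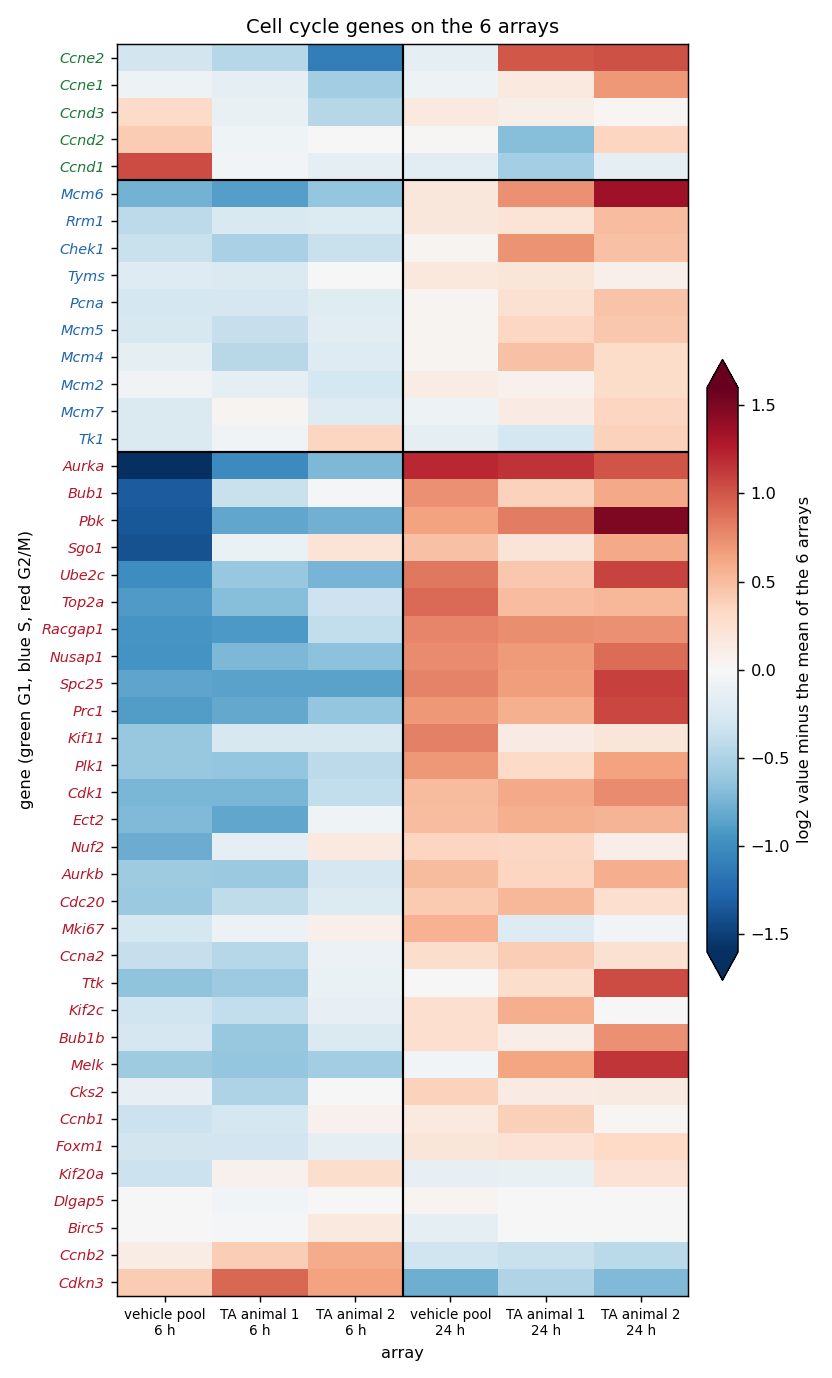
Each row is 1 of the 46 measured genes and each column 1 array; colour is the log2 value minus the gene's mean over the 6 arrays, with rows grouped as G1, S and G2/M and ordered within a group by the difference between the vehicle pools. All 3 arrays of 24 h lay above all 3 of 6 h for 31 genes, while Ccnd1, Ccnb2 and Cdkn3 ran the other way.

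By median, the vehicle pools differed by 0.56 over the 46 genes and by -0.01 over all genes, and the TA means by 0.62 against -0.0016. G2/M genes had medians of 1.07 in vehicle and 0.71 in TA, S phase genes 0.32 and 0.58, and G1 genes -0.16 and 0.35. Both TA arrays of 24 h lay above both of 6 h for 34 genes (24% of all genes) and below both for 3 (23.2% of all). All 3 arrays of 24 h lay above all 3 of 6 h for 31 genes (13.3% of all), which were 22 of G2/M, 8 of S phase and 1 of G1, and below them for 3 (15.1% of all). No gene passed limma's test of TA at 24 h against 6 h, in which 0 of 18625 probe sets were called and 2760 had an unadjusted p under 0.05. Of the 46 genes, 29 had an unadjusted p under 0.05 with a higher value at 24 h, against 9.35% of all genes, and 2 with a lower value, against 7.63%. The smallest adjusted p of the whole table was 0.136, shared by Aurka and Nusap1 among others. With 2 animals on each side, the smallest p of an exact permutation test is 0.333, so that it could not pass for any gene.

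**Figure D2:**
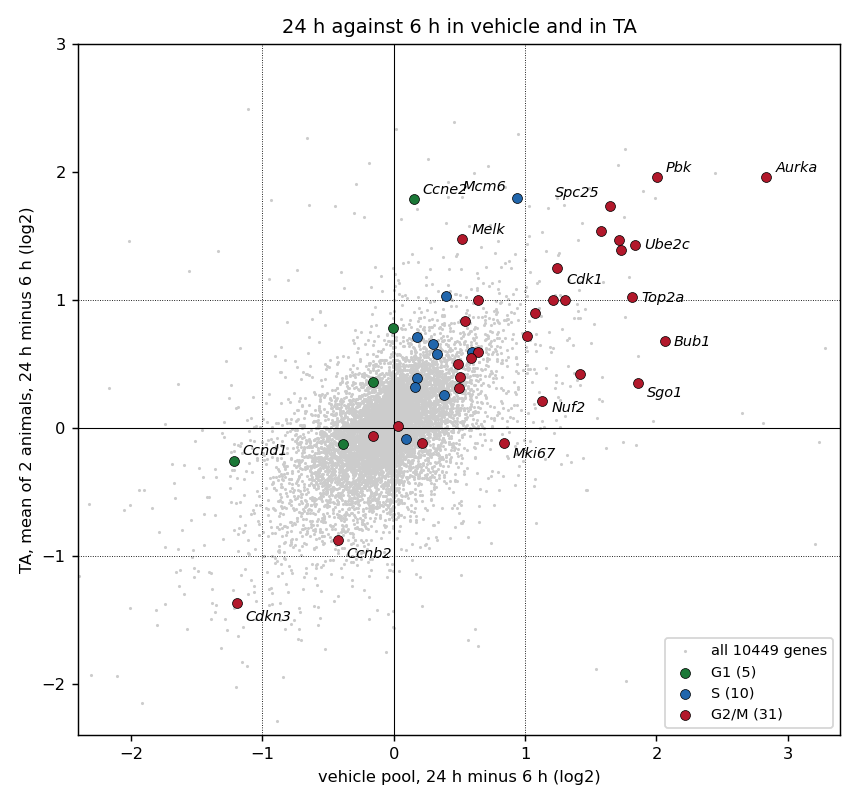
Each point is 1 gene, with the difference of 24 h from 6 h between the vehicle pools on the x axis and between the TA means on the y axis (log2, dotted lines at 2-fold); grey points are all genes, of which 32 lie outside the axes. Many G2/M genes lie at the upper right, with Sgo1, Nuf2, Bub1, Kif11 and Mki67 well below the diagonal, Ccne2 lies near the y axis, and Cdkn3 and Ccnb2 lie at the lower left.

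Across the 46 genes the 2 differences correlated at 0.71 (Pearson, 0.64 Spearman), against 0.53 over all genes, as a description of points that share their arrays. The sign was the same for 41 of 46 genes, 36 upward and 5 downward, and for 67.9% of all genes. The arrays were also put into 2 hybridisation runs, taking those with the same hour in the fluidics settings as 1 run. The vehicle pool of 6 h and TA animal 1 of 6 h fell in the first, the 4 others in the second. The vehicle difference spans both runs. With the run as a term, which takes the difference between the TA animals of 6 h as the run effect, its median was 0.40, with 12 genes past 2-fold upward. Within the second run, TA at 24 h against animal 2 of 6 h had a median of 0.55, with 11 genes past 2-fold.

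Among the kinases of mitosis, Aurka, which builds the spindle poles, had the largest difference between the vehicle pools, and Pbk and Aurka had nearly equal ones in TA. It was at 4.60 in the vehicle pool and 5.21 and 5.51 in the TA animals at 6 h, and at 7.44, 7.39 and 7.24 at 24 h. No array of 24 h came near those of 6 h. The difference was 2.84 between the pools, the 9th largest upward of all genes, and 1.96 ± 0.15 (SE, n = 2 animals a time) in TA (limma, adjusted p = 0.136). Pbk, a mitotic kinase, was at 4.44, then 4.96 and 5.03 in TA, at 6 h, and at 6.44, then 6.62 and 7.29, at 24 h. Its differences were alike, 2.00 in vehicle and 1.96 ± 0.26 in TA. Plk1, which drives entry into mitosis and centrosome maturation, was at 4.67, 4.66 and 4.86 against 5.97, 5.59 and 5.92, again with the times apart. Aurkb, the kinase of the chromosomal passenger complex, was at 6.35 in the pool and 6.32 and 6.65 in TA at 6 h, and at 7.42, 7.26 and 7.49 at 24 h.

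Bub1, a kinase of the spindle checkpoint, differed by 2.07 between the vehicle pools but by 0.68 ± 0.17 in TA. Its values were 5.25 in the pool and 6.23 and 6.58 in TA at 6 h, and 7.32, 6.96 and 7.198 at 24 h, so that the pool of 6 h stood lowest by itself. Ttk, another checkpoint kinase, went from 3.98, 4.05 and 4.53 to 4.62, 4.91 and 5.67, where animal 2 of 24 h was highest. For Melk, a kinase found in dividing cells, the order was different: 3.93, 3.88 and 3.95 at 6 h, 4.46 in the pool of 24 h and 5.13 and 5.64 in TA. The pool of 24 h thus lay between the times. Bub1b, the remaining checkpoint kinase, differed by 0.54 in vehicle and 0.83 ± 0.28 in TA. All 8 kinases were higher at 24 h in both comparisons, with medians of 1.19 in vehicle and 1.00 in TA.

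The kinase Cdk1, whose complex with cyclin B starts mitosis and whose promoter is printed above, gave nearly equal differences of 1.24 in vehicle and 1.25 ± 0.16 in TA. It was at 7.11 in the pool and 7.11 and 7.45 in TA at 6 h, and at 8.36, 8.46 and 8.61 at 24 h. The cyclins and partners of Cdk1 did not all follow it. Ccna2, Ccnb1 and Cks2 differed by 0.50 to 0.64 in vehicle and by 0.31 to 0.59 in TA, and the second probe set of Ccnb1 by 1.67 and 1.22. Ccnb2, the second B-type cyclin, was lower at 24 h on every array, at 8.90 in the pool and 8.87 and 8.79 in TA, against 9.33, 9.604 and 9.81 at 6 h. Its differences were -0.43 in vehicle and -0.88 ± 0.11 in TA. Its printed promoter holds CCAAT and CHR words as those of Cdk1 and Spc25 do. Cdkn3, a phosphatase that acts on Cdk1 and Cdk2, was lower too: 9.16 in the pool and 9.66 and 9.39 in TA at 6 h, against 7.96, 8.26 and 8.04. That made -1.20 in vehicle and -1.37 ± 0.15 in TA (limma, adjusted p = 0.171). Both have a single probe set here. Foxm1, the transcription factor of G2/M genes, lay near the floor, at 3.94 to 4.10 at 6 h and 4.44 to 4.56 at 24 h, with 0.49 in vehicle and 0.50 ± 0.10 in TA.

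**Figure D3:**
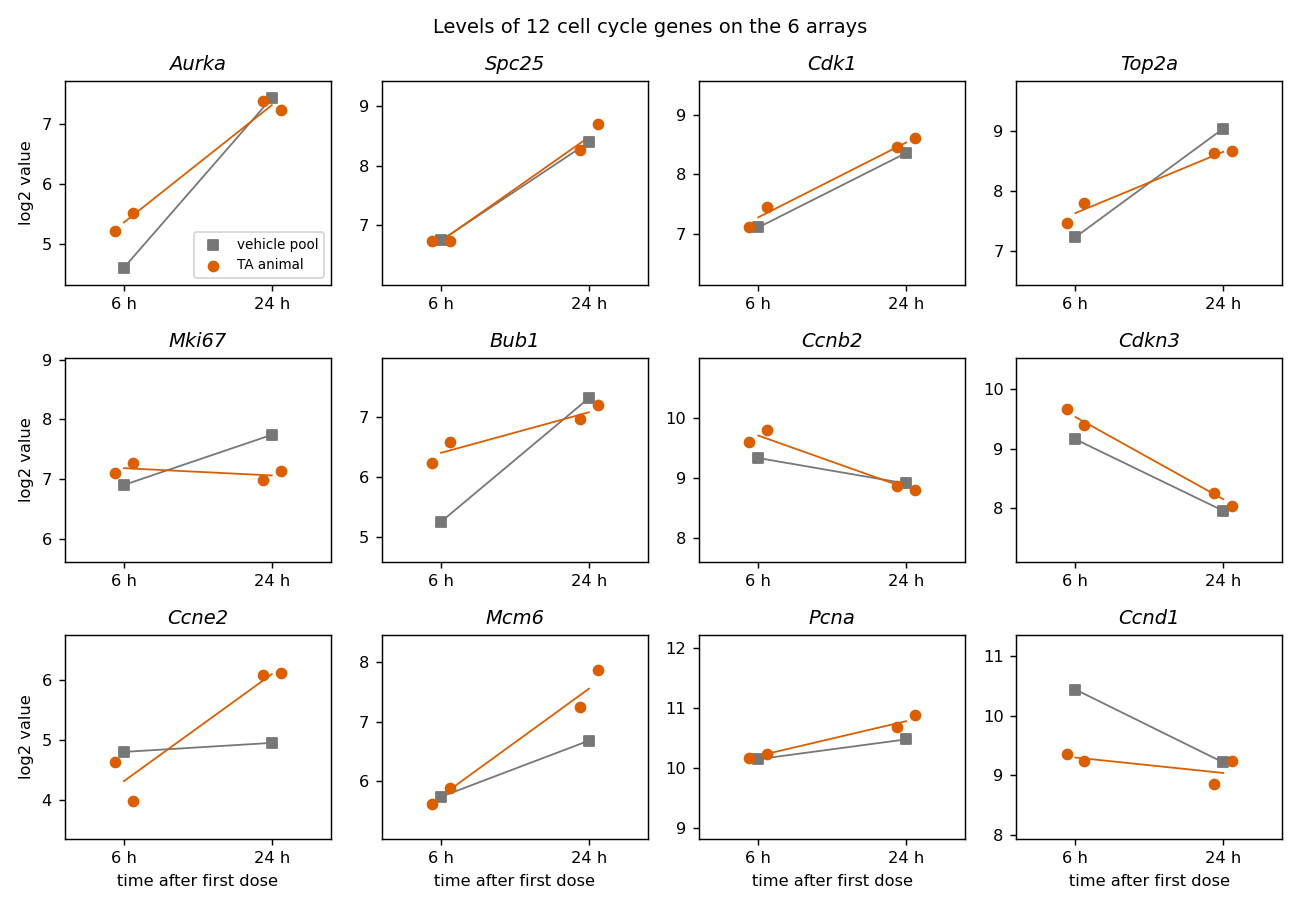
Log2 values of 12 genes at 6 h and 24 h after the first dose, with grey squares for the vehicle pools and orange dots for the TA animals; lines join the pools and the TA means, and every panel spans 3.4 units. Aurka, Spc25 and Cdk1 lie higher at 24 h in both treatments and Ccnb2 and Cdkn3 lower in both. The 24 h values of Ccne2 stand apart in TA, and that of Mki67 in the vehicle pool.

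The ubiquitin machinery that ends mitosis was higher at 24 h as well. Ube2c, the E2 enzyme of the anaphase-promoting complex, was at 6.05 in the pool and 6.45 and 6.31 in TA at 6 h, and at 7.89, 7.48 and 8.13 at 24 h. Its activator Cdc20 was at 7.69, 7.87 and 8.06 against 8.70, 8.82 and 8.55. For both genes the times did not overlap. At the kinetochore, Spc25, a subunit of the NDC80 complex whose promoter is printed above, had 3 nearly equal values at 6 h, 6.75, 6.74 and 6.74, and 8.39, 8.27 and 8.69 at 24 h. The difference of 1.64 in vehicle was matched by 1.74 ± 0.17 in TA. Its partner Nuf2 stood at 6.25 in the pool of 6 h, apart from 6.90 and 7.201 in TA at 6 h and 7.38, 7.37 and 7.15 at 24 h. Sgo1, which protects cohesion at centromeres, had 2.61 in the same pool, at the floor, and 3.90 and 4.21 in TA at 6 h, then 4.47, 4.21 and 4.60. For Nuf2 and Sgo1 the TA animals of the 2 times met or overlapped, with differences of 0.21 ± 0.16 and 0.35 ± 0.20. Birc5, survivin, differed by -0.16 in vehicle and -0.07 ± 0.10 in TA.

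Of the spindle genes, Nusap1 and Prc1 separated the times most. Nusap1, which bundles microtubules, was at 6.81, 7.05 and 7.12 at 6 h and at 8.53 in the pool and 8.45 and 8.67 in TA at 24 h, a difference of 1.47 ± 0.11 in TA (limma, adjusted p = 0.136). Its second probe set was at 3.09 in the pool and 4.33 and 4.36 in TA at 6 h, and at 5.66, 5.49 and 5.61 at 24 h. The differences of that probe set were 2.57 in vehicle and 1.21 in TA, where the brightest had 1.72 in vehicle. Prc1, of the central spindle, was at 5.87, 5.95 and 6.14 against 7.45, 7.33 and 7.83. Kif11, the motor that pushes spindle poles apart, was near the floor at 6 h, at 2.96 in the pool and 3.31 in both TA animals. At 24 h it was at 4.38 in the pool but at 3.70 and 3.76 in TA. Kif2c differed by 0.59 in vehicle and 0.55 in TA, Kif20a by 0.22 and -0.12, and Dlgap5 by 0.04 and 0.01. In cytokinesis, Racgap1 was at 5.66, 5.69 and 6.21 at 6 h and at 7.39, 7.34 and 7.34 at 24 h. Its partner Ect2, the exchange factor for RhoA, was at 7.67, 7.55 and 8.32 against 8.88, 8.95 and 8.92. Both were tightly grouped at 24 h, and at 6 h animal 2 stood above the other arrays.

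Top2a and Mki67, both used as markers of dividing cells, differed from each other. Top2a, which untangles sister chromosomes, was at 7.23 in the pool and 7.45 and 7.80 in TA at 6 h, and at 9.04, 8.64 and 8.67 at 24 h. Its second probe set also separated the times, by 1.13 in vehicle and 1.41 in TA. Mki67, the antigen Ki-67, was at 6.91, 7.10 and 7.27 at 6 h and at 7.74 in the pool of 24 h, but at 6.98 and 7.15 in the TA animals of 24 h. The TA animals of the 2 times thus overlapped for Mki67, with a difference of -0.12 ± 0.11.

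Replication genes were mostly higher at 24 h, with smaller medians than G2/M genes. The difference was larger in TA than in vehicle for 7 of the 10 (56.5% of all genes), but smaller for Rrm1, Tyms and Tk1. Limma's test of the difference of effects passed for none. Of all 46 genes, 39 were higher in the pool of 24 h (40.7% of all genes) and 7 lower (59.3%), and all 10 measured S phase genes were among the 39. In TA 9 of the 10 were higher (5162 of all 10449 genes), with Tk1, thymidine kinase, the exception at -0.09. The second probe set of Tk1 gave -0.06 in vehicle, where the brightest had 0.09, and -0.09 in TA. Against vehicle that second probe set gave -0.06 at 6 h and -0.09 at 24 h, where the brightest had 0.37 and 0.19. In the MCM helicase, which unwinds DNA at the fork, Mcm6 was at 5.74 in the pool and 5.62 and 5.89 in TA at 6 h, and at 6.68, 7.24 and 7.86 at 24 h. The difference was 0.94 in vehicle and 1.79 ± 0.26 in TA. Mcm2 was at 7.05, 6.97 and 6.84 against 7.23, 7.18 and 7.41, a difference of 0.39 ± 0.13 in TA. Mcm4, Mcm5 and Mcm7 differed by 0.16 to 0.30 in vehicle and by 0.32 to 0.71 in TA. Pcna, the sliding clamp of the polymerases, was at 10.15, 10.17 and 10.24 at 6 h and at 10.48, 10.68 and 10.89 at 24 h. The steps were small, but the times did not overlap. Chek1, the kinase of the replication checkpoint, was at 6.24, 6.08 and 6.23 against 6.63, 7.31 and 7.05, or 1.03 ± 0.14 in TA. Rrm1, ribonucleotide reductase, differed by 0.60 in vehicle and 0.59 in TA, and Tyms, thymidylate synthase, by 0.38 and 0.26.

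In G1 the cyclins split. Ccne2, an activator of Cdk2 at the start of S phase, was at 4.800 in the pool and 4.64 and 3.99 in TA at 6 h, at 4.95 in the pool of 24 h, and at 6.08 and 6.11 in the TA animals of 24 h. The pools differed by 0.15 and the TA means by 1.79 ± 0.25 (limma, adjusted p = 0.177). Ccne1 differed by -0.0019 and 0.78 ± 0.26. Ccnd1, the D-type cyclin of growth signals, was at 10.43 in the pool of 6 h, 9.35 and 9.25 in TA at 6 h, and 9.22, 8.85 and 9.23 at 24 h. The pool of 6 h stood apart on its other 2 probe sets as well, at 9.29 and 8.29. Ccnd2 was at 5.22, 4.74 and 4.81 at 6 h and at 4.83, 4.13 and 5.16 at 24 h, where the TA animals lay on either side of their pool. Ccnd3 was at 6.57, 6.14 and 5.81 against 6.42, 6.37 and 6.30.

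Comparing TA with vehicle at 6 h, G1 cyclins were lower and many mitotic genes higher than the vehicle pool. All 5 measured G1 genes were lower in both TA animals (38.4% of all genes were), with a median difference of -0.49 (-0.76 without animal 1 of 6 h) and Ccnd1 at -1.14 ± 0.20. Of the G2/M genes, 19 of 31 were higher in both animals (22.9% of all genes) and 1 lower, with a median of 0.27. Bub1 had 1.15 ± 0.21, Nuf2 0.80 ± 0.19 and Aurka 0.76 ± 0.18. Sgo1, whose pool value of 2.61 lies under the filter limit, was at a TA mean at least 1.23 above that limit, and the S phase median was 0.03. By size, Sgo1 was at least 2-fold higher in both animals (0.249% of all genes) and Ccnd1 at least 2-fold lower (0.23%). At 6 h limma called 0 of 18625 probe sets, and the lowest adjusted p among the 46 was 0.76. An unadjusted p under 0.05 was reached by 5 of the 46 with a higher value in TA (1.83% of all genes) and 2 with a lower one (3.8%), or by 5.84% of probe sets and 5.63% of genes in either direction. For Bub1, Nuf2, Aurka and Sgo1 no array had a lower value than this vehicle pool, and for Ccnd1 none had a higher one. Most of the 46 genes were lower at 6 h, so their lowest array was mostly of that time. How often this holds over all genes was not counted. Animal 1, which shared its run with the pool, had a G2/M median of 0.06 and animal 2, of the other run, one of 0.34. Against the vehicle pool of 24 h the G2/M median turned to -0.69.

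At 24 h the replication genes and Ccne2 were above the vehicle pool in TA, and mitotic genes lay on both sides of it. The S phase median was 0.31 (0.20 without animal 2 of 24 h). Of the 10 genes, 9 were positive (4786 of all 10449 genes) and 7 were higher in both animals (28.1% of all genes). Ccne2 had 1.15 ± 0.31, Melk 0.93 ± 0.25, Mcm6 0.87 ± 0.32 and Chek1 0.55 ± 0.17. Ccne2 was the 1 gene at least 2-fold higher in both animals (0.258% of all genes). Of the 31 G2/M genes, 9 were higher in both animals and 11 lower in both (34.5% of all genes), with a median of 0.02. Mki67 had -0.68 ± 0.14, Kif11 -0.65 ± 0.10 and Top2a -0.39 ± 0.18. The pool of 24 h was the highest of the 6 arrays for these genes, a pattern that was not counted over all genes. The second probe sets of Top2a and Kif11 had 0.54 and -0.29, so that for Top2a they disagree in sign. At 24 h limma called 1 of 18625 probe sets (0.00537%) and none of the 46, whose lowest adjusted p was 0.904. An unadjusted p under 0.05 was reached by 3 of the 46 with a higher value (2.1% of all genes) and 2 with a lower one (3.06%), or by 5.28% of probe sets in either direction. All 3 arrays of this comparison shared a run.

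**Figure D4:**
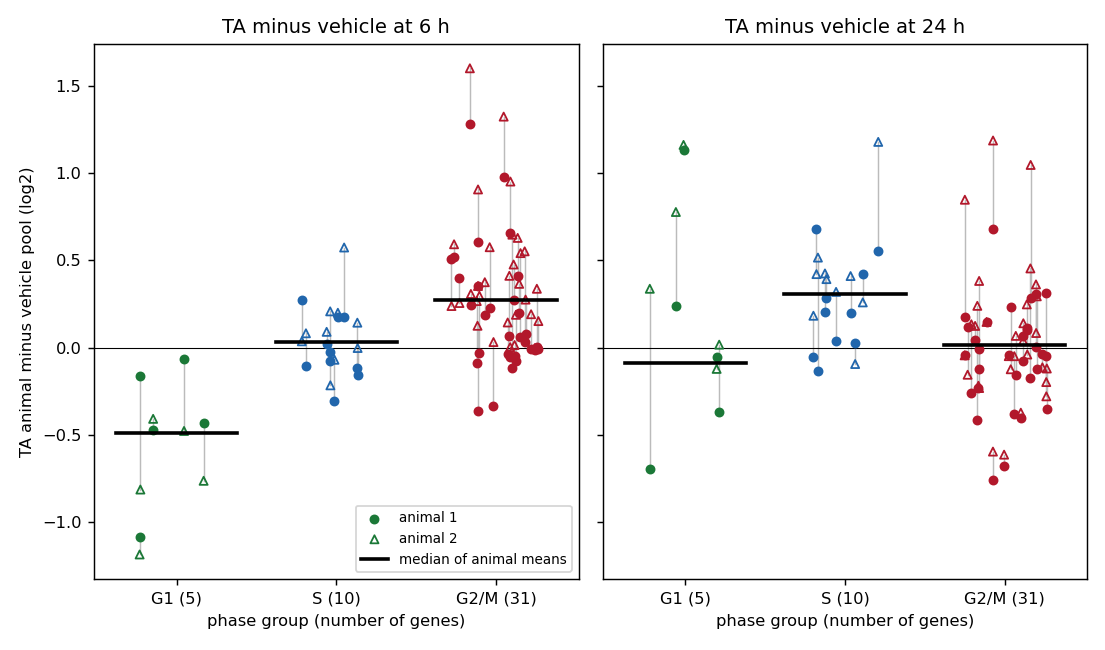
Difference of each TA animal from the vehicle pool of its time (log2) for each measured gene, by phase group, with filled dots for animal 1, open triangles for animal 2, a grey line joining the 2 values of a gene and a black bar at the median of the animal means. At 6 h the bar is at -0.49 for G1 and 0.27 for G2/M, and at 24 h it is at 0.31 for S phase and 0.02 for G2/M.

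The effect of TA at 24 h minus that at 6 h was positive for all 5 G1 genes (56.5% of all genes), with a median of 0.78. It was negative for 24 of 31 G2/M genes (43.5% of all), with a median of -0.19 against 0.025 over all genes. S phase genes had a median of 0.23, or 0.12 without animal 2 of 24 h. Limma's test of this difference called 1 of 18625 probe sets (0.00537%) and none of the 46, for which every adjusted p was 1.0. At an unadjusted p under 0.05, reached by 4.61% of all genes, were 2 positive genes, Ccne2 and Ccnd1, against 2.66%. Another 7 were negative, against 1.95%. These were Aurka, Bub1, Nuf2, Sgo1, Kif11, Top2a and Mki67, all of G2/M. The second probe sets of Top2a and Kif11 gave 0.27 and -0.34, so that for Top2a the signs disagree. The G2/M median was -0.01 with the run as a term or without animal 2 of 6 h, -0.34 without animal 1 of 6 h and -0.29 without animal 2 of 24 h. The value of Sgo1 rests on a pool of 6 h under the filter limit. Both animals were below their pool at 6 h and above it at 24 h for 4 of the 46 genes (10.3% of all), and above and then below it for 8, all of G2/M (6.74% of all).

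Further genes of the cycle, from lists drawn up alongside the 46, were described in the same way. Of 36 other S phase genes 28 were measured, 23 of them higher in TA at 24 h than at 6 h, with a median of 0.42. The vehicle median was 0.03, with 17 higher. Of all 10449 genes, 5162 were higher at 24 h in TA and 40.7% in vehicle, to be set beside the lists below too. The largest in TA were Gins1, of the replicative helicase, at 1.802 ± 0.13, and Asf1b, a histone chaperone, at 1.13 ± 0.16. At 24 h 16 of the 28 were above the vehicle pool in both TA animals (28.1% of all genes), with a median of 0.13. Of 54 names of other G2 and mitosis genes 41 were measured, 35 of them higher in TA and 33 in vehicle at 24 h, with medians of 0.34 and 0.37. Wee1, the inhibitory kinase of Cdk1, had 1.73 ± 0.15 in TA and Kntc1, of the checkpoint, 1.02 ± 0.17, and in vehicle Cdc27 and Cenpf led with 1.58 and 1.56. Other G1 genes, 15 measured of 17, had medians of 0.04 in TA and 0.003 in vehicle, with Rbl1 at 1.35 ± 0.35 and Myc at -1.28 in TA. Of 7 CDK inhibitors 5 were measured, 3 higher and 2 lower in TA at 24 h with a median of 0.04. The 2 lower were Cdkn1b, p27, at -0.54 and Cdkn1c, p57, at -0.59. Cdkn1a, p21, was at 7.08 in the pool and 6.69 and 6.50 in TA at 6 h, and at 7.80, 8.77 and 8.52 at 24 h, or 2.05 ± 0.14 in TA, and its second, dim probe set gave -0.02. None of these list genes was called by limma in TA at 24 h against 6 h.

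Array medians lay between 3.27 and 3.31 and correlations between arrays between 0.991 and 0.997. Control probe sets at the end of the Gapdh transcript lay above those at its start by 1.82 to 2.26. For actin this difference was 4.17 to 4.36. Gapdh had its largest difference in TA animal 1 of 6 h and its smallest in TA animal 2 of 24 h. Hepatocyte markers, 8 measured of 9, had mean values of 14.23 to 14.34 at 6 h and 14.42 to 14.49 at 24 h. Markers of other cells that could divide or vary in number were read beside these results. Erythroid markers, 4 measured of 9, had means of 8.28 to 8.77 at 6 h and 8.42 to 9.44 at 24 h. Lymphocyte markers, 4 of 13, had 4.26 to 4.41 and 4.22 to 4.37, and Cd3d, Cd8a, Cd4, Cd2, Ms4a1, Cd79b and Nkg7 were below the filter. Kupffer cell markers, 9 of 11, had 9.07 to 9.37 and 8.78 to 9.03, sinusoidal endothelium, 7 of 8, 9.27 to 9.33 and 8.85 to 9.20, and stellate cells, 7 of 8, 7.51 to 8.22 and 6.91 to 7.52. Neutrophil markers, 2 of 7, had 3.85 to 4.44 and 3.87 to 4.64, and those of cholangiocytes, 3 of 6, 6.43 to 6.79 and 5.95 to 6.38. By list mean, the hepatocyte list was higher and, by the same measure, the Kupffer, endothelial and cholangiocyte lists were lower on every array of 24 h than on any of 6 h, and the 4 other lists overlapped. Within the hepatocyte list 4 of 8 genes were higher at 24 h in TA and 3 in vehicle, with medians of -0.01 and -0.03, and Tat alone was higher by 1.53 and 1.13. Hnf4a was read from its brightest probe set, at 0.09 in TA and 0.25 in vehicle. Its 2 other probe sets gave -2.01 and -1.67 in TA, and -1.21 and -0.93 in vehicle. The part of these markers in the results was not tested.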

How the data were processed

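Liver RNA was measured on 6 Affymetrix Rat230_2 arrays. The deposited values are log2 summaries of 31099 probe sets. Per the submitters' processing notes, the authors used R 2.0.1 and affy 1.5.8 and name both RMA and GCRMA. Which of them was used for the values is not stated in these sources. The array settings, deposited as other text, gave the hybridisation times. The precision is limited by the number of arrays.

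Of the probe sets, 57 are controls and were not used. By the platform annotation, possibly out of date, 20826 have 1 symbol, 436 several and 9780 none. Probe sets with a mean over the 6 arrays above the 40th percentile, 2.82, were kept (18625). A model with 1 mean per group was fitted to all of them (limma 3.58.1, R 4.3.3), with 2 residual and 1.6 prior degrees of freedom. Its two-sided p-values were adjusted after Benjamini and Hochberg over all probe sets and called under 0.05. The procedure was tested on simulated data. The vehicle pools were compared by value only. Shares of all genes use the brightest probe set of 10449 genes.

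Members, phases and lists were chosen with earlier results of these data known. Values on every array are given for the 29 genes with group means at least 2-fold apart in a comparison or fixed as Ccnd1 to Ccnd3, Cdk1, Pcna, Mcm2, Mki67 and Top2a, and also for Ccnb2. Of the other lists, the 2 genes with the largest values were named, and further genes in the closing section after their values were seen. The promoters printed were meant to be those with the largest difference between the pools. Of these Aurka and Bub1 hold none of the words, so the 4 shown were chosen afterwards. Alternatives covered the filter, probe set summary, scaling, trend, control pool, run, replicate block and left-out arrays. The run in the vehicle comparison, the additive model, the 2-fold count between TA means, the count of genes with every array of 24 h above every array of 6 h, and all alternatives of these counts and of the 2-fold count between the pools were added after seeing the data.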

Additional observations from a re-analysis of the deposited data

Results flagged for a closer look

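Of the 29 genes given on every array by rule, 9 had both TA animals of 6 h on one side of their vehicle pool and both of 24 h on the other side of theirs. No such difference passed limma's test of the difference itself (adjusted p = 1.0 for each). Given as the effect at 24 h minus that at 6 h, these were Ccne2 at 1.64 and Chek1 at 0.63, lower than the pool at 6 h and higher at 24 h (10.3% of all genes had this pattern). The reverse held for Aurka at -0.88, Bub1 at -1.39, Nuf2 at -0.92, Kif11 at -1.001, Racgap1 at -0.34, Top2a at -0.79 and Mki67 at -0.96 (6.74% of all genes). Racgap1 and Chek1 met the rule by small margins. The TA animals of 24 h were at -0.044 and -0.045 from their pool for Racgap1, and animal 2 of 6 h at -0.0029 for Chek1. The second probe set of Top2a gave the other sign, 0.27, and that of Kif11 gave -0.34. Each value rests on 1 vehicle pool at each time. The 29 genes were picked partly for 2-fold differences that involve these pools, so the shares of all genes are not a like comparison. No group held enough arrays to look for an array far from the others.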

How the results depend on the processing

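The median of 24 h against 6 h kept its sign over the 46 genes under every setting tried, from 0.54 to 0.71 in TA with each treated array left out, and 0 genes were called in any of the tests. The additive model of time and treatment, over 3 arrays a time, called 3 of 18625 probe sets, 0 of the 46 genes among them. The count of genes with every array of 24 h above every array of 6 h was 25 to 34. The 25 are of the 38 genes left by the filter at the 60th percentile. Leaving out an array can only keep or raise this count, so those settings do not test it. TA against vehicle depended on the pool. Against the pool of the other time the median was -0.50 at 6 h and 0.73 at 24 h, and with both pools as 1 control group -0.26 and 0.46. In the same order at 6 h the S phase median was -0.32 and -0.14, and that of G2/M -0.69 and -0.28. Against the pool of 24 h Ccnd1 was at 0.082, Bub1 at -0.91 and Sgo1 at -0.42. The G2/M median at 24 h, 0.02, was -0.044 with the filter at the 60th percentile, and -0.044 to 0.039 with each treated array left out, the lowest without animal 2 of 24 h. The G1 median at 24 h was -0.088 to 0.34, the highest without animal 1 of 24 h. In TA the G1 median between times was 0.19 without animal 2 of 6 h, Ect2 was at 0.62 without animal 1 of 6 h, and Ttk at 0.62 without animal 2 of 24 h. The causes were not tested. With each treated array left out, the medians over the 46 genes ranged from -0.0040 to 0.22 at 6 h and from -0.0035 to 0.14 at 24 h. The replicate block left the median of the times in TA at 0.62, and gave 0.042 at 6 h, -0.020 at 24 h and -0.060 for G2/M at 24 h. Same-numbered TA arrays deviated together at -0.0789, which shows no pairing by number but, with 2 animals a time, cannot exclude one.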

Other observations

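Some clock genes differed widely between the times on the same arrays. Nr1d1, the repressor of the clock, was at 7.51 in the pool and 7.30 and 6.73 in TA at 6 h and between 1.96 and 1.97, at the floor, on all 3 arrays of 24 h. Cry1 was at 5.40, 4.19 and 4.92 against 8.75, 8.91 and 8.85, and Per2 at 5.72, 5.001 and 5.27 against 8.49, 8.60 and 8.87. Wee1, whose promoter is known to be driven by the clock, was at 5.16, 4.74 and 4.92 against 6.19, 6.42 and 6.71, and its second probe set separated the times too, by 0.93 in vehicle and 1.74 in TA. Of 15 measured clock genes, all 3 arrays of 24 h were above all 3 of 6 h for 6 (13.3% of all genes) and below them for 3 (15.1%), while 6 did not separate. Whether the hour of the day moves the cell cycle genes was not tested.

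Retinoblastoma family members were also apart by time. Rb1 was at 8.63 in the pool and 7.42 and 7.92 in TA at 6 h, and at 9.06, 8.83 and 8.99 at 24 h, while Rbl2, p130, was at 9.37, 9.34 and 9.43 against 9.11, 8.83 and 8.94. Cdkn1c, p57, was at 5.25 in the pool of 6 h, 6.30 and 6.28 in the TA animals of 6 h and 5.69 to 5.75 at 24 h.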
